A study of Mus musculus with 32 samples.

Results

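Genes for lysosomal enzymes and lysosomal membrane proteins were followed in mouse bone marrow cells that had lost Kat7, also called Hbo1, a histone acetyltransferase that works within a multi-subunit complex. The set held 33 genes chosen by name, with earlier results of these data known. How far that choice enters the shares of members called below was not tested. The genes were matched to the count table through their Entrez identifiers, and all 33 were found among its 27179 genes. By role they fell into 8 membrane proteins and transporters, 9 cathepsins and other peptidases, 8 glycosidases, and 8 genes for lipid or thioester hydrolases, lipid carriers, phosphodiesterases and progranulin. RNA sequencing covered 32 libraries from 16 adult C57BL/6 mice. From every mouse 1 library was made of LSK cells, a marrow fraction without lineage markers but with Sca-1 and Kit on its surface, in which hematopoietic stem cells are found, and another of progenitors, for which the labels describe no gate. The 8 groups of 4 libraries were knockout and control LSK cells, then knockout and control progenitors, each for 2 Cre lines. In knockouts (Hbo1fl/fl) both floxed alleles had been deleted in the adult. Controls (Hbo1fl/+) carried the same Cre and received the same inducer but lost 1 allele by their titles, so they stand for heterozygous cells, although the treatment protocol calls them wild type. In Mx1Cre mice the recombinase comes from an interferon-responsive promoter and was switched on with polyIC. In CreER mice (RosaCreERT2) it comes from the Rosa locus and was activated with tamoxifen. Neither driver is restricted to blood cells, and each line came with its own inducer, its own mice and its own balance of sexes, which cannot be told apart. CreER groups held 3 females and 1 male each, and Mx1Cre groups 2 and 2.

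Lysosomes are acidic compartments in which hydrolases break down proteins, glycans, lipids and nucleic acids taken up by endocytosis or delivered by autophagy. Most soluble enzymes are made in the endoplasmic reticulum, tagged with mannose 6-phosphate and carried to the lysosome by receptors, while heavily glycosylated membrane proteins line the compartment and a proton pump acidifies it. Factors of the MiT/TFE family, such as Tfeb, bind E-box elements in the promoters of many of these genes. In blood, macrophages and granulocyte-monocyte cells are rich in lysosomal enzymes and granule proteases, and lysosomal activity has been linked to stem cell quiescence.

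Promoter windows, the 250 bases before a transcript start in RefSeq on GRCm38.p6, were found for 28 of the 33 members. The E-box core CACGTG, which reads the same on both strands, occurred in at least 1 window of 7 of these 28 members, Ctsa, Ctsd, Mcoln1, Lamp1, Glb1, Gaa and Ctsl, against 6.02% of 32851 windows of all genes. The longer form TCACGTG, which contains that core and was sought on both strands, occurred in 6 of the 28, against 3.13% of all windows. GAGGAAG, a core bound by ETS factors such as PU.1 and also sought on both strands, occurred in 5 members, Laptm5, Ctsc, Man2b1, Cd63 and Lipa, against 10.6% of all windows. These matches describe letters in the windows and not bound sites. Members were counted by gene, over 30 windows in all, whereas the shares of all genes are per window. The windows of 5 members are printed: those with more than 1 E-box (3 members), and those (2 members) with GAGGAAG that fell in knockout progenitors. Capitals mark E-box matches in Lamp1 (chr8:13158911-13159160, plus strand), Mcoln1 (chr8:3500269-3500518, plus strand) and Ctsd (chr7:142387828-142388077, minus strand), and GAGGAAG on either strand in Laptm5 (chr4:130913066-130913315, plus strand) and Ctsc (chr7:88277835-88278084, plus strand).
Lamp1: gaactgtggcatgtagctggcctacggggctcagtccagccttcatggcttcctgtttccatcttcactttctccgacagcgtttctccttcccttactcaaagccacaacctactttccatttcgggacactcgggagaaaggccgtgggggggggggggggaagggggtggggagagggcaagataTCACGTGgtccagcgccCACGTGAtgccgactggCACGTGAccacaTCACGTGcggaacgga
Mcoln1: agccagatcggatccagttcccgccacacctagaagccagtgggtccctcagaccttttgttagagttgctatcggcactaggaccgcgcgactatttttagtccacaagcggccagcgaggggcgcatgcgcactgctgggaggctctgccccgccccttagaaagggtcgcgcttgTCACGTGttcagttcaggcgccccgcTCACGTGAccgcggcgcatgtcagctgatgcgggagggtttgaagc
Ctsd: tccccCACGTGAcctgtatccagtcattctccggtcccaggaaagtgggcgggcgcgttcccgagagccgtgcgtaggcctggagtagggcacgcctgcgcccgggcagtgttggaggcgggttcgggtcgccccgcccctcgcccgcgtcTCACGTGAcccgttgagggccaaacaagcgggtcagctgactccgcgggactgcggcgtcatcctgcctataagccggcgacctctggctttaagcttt
Laptm5: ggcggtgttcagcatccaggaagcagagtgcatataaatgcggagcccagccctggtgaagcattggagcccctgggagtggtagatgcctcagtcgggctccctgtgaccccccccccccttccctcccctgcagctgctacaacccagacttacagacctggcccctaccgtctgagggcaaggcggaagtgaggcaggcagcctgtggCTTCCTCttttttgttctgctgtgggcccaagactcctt
Ctsc: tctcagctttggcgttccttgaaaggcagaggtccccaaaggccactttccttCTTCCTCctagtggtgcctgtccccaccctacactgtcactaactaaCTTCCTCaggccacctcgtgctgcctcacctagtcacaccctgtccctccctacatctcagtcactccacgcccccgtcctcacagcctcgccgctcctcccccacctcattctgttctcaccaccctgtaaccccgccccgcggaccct
Lamp1 held 4 E-box matches, Mcoln1 and Ctsd 2 each, Ctsc 2 GAGGAAG matches and Laptm5 1.

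Library totals lay between 7275277 and 18409271 counts (median 12207444), and the members took between 0.400% and 0.764% of a library's counts. Kat7 itself was at 0 to 1.61 CPM (a gene's counts relative to the total of its library) in knockout libraries. In control libraries it was at 35.3 to 80.0 CPM, both before the scaling used below. The lowest control value was that of progenitor Mx1Cre control 1, and the next lowest, 55.3 CPM, that of LSK CreER control 3. Against their labels, 2 libraries disagreed with the sex of the mouse: LSK CreER knockout 2, labelled female, held Y-linked counts and almost no Xist, and knockout 3, labelled male, the reverse. The progenitor libraries of the same mice matched their labels. Whether the 2 LSK libraries were exchanged was not tested. Since both belong to the same group, an exchange would leave the tests by group unchanged. It would alter only fits that use the mouse, the replicate number or the labelled sex. Results that rest on these 2 libraries are given with and without them, although leaving them out also makes the group smaller. Of the progenitor libraries, Mx1Cre control 1 and Mx1Cre knockout 4 had the steepest trends of expression with transcript length. The CreER control mouse 3 had the highest sum over the members of its group in both populations. LSK surface and stem cell genes were present. All 9 of a marker list were higher in LSK than in progenitor controls averaged over both Cre lines. In CreER mice, however, the libraries overlapped for Kit and Slamf1. With the scaling given below, Kit was at 376 to 437 CPM in LSK and 320 to 430 CPM in progenitor CreER controls. Slamf1 was at 4.48 to 13.2 CPM in LSK and 6.39 to 16.7 CPM in progenitor CreER controls, lower in LSK cells at both ends. Values below are CPM with TMM scaling over all 32 libraries, in the order of replicates 1 to 4. Within a group they come from separate mice. LSK and progenitor libraries with the same Cre line, genotype and replicate number come from the same mouse. Comparisons of the populations did not use that pairing, except where the mouse is named as a block. Log2 differences carry their standard error (SE), and p-values come from edgeR's quasi-likelihood test with Benjamini-Hochberg adjustment over all genes tested, called below 0.05. Shares of all genes called are for edgeR at that adjusted threshold. For member counts at an unadjusted p, and for those from DESeq2, the share over all genes was not taken. Such counts are therefore not set against a background, and the adjusted shares of all genes do not apply to them. In bulk libraries fewer cells of a type and less RNA per cell cannot be told apart. All 33 members passed the filter on low counts in each comparison.

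Per kilobase of exon, Laptm5, a lysosomal membrane protein of blood cells, had the highest median level over the 16 control libraries, at 266 CPM per kb, with a range of 201 to 364. Psap, the precursor of the saposins that present lipids to hydrolases, followed at 234 CPM per kb, with a wider range of 119 to 538. Ctsz, a carboxypeptidase, stood at 171, Ctsd, the main aspartic protease, at 168, and Lamp1, a major lysosomal membrane glycoprotein, at 147 CPM per kb. At the low end were Npc1, the cholesterol exporter, at 9.003 CPM per kb and Galc, which degrades galactosylceramide, at 4.94. The ranges of neighbours in this order overlapped, since a member such as Ctsh spanned 4.76 to 71.7 CPM per kb over the controls. Counts of 12 members may include reads from another gene sharing exon bases, with the largest shared part, 34.4% of exon bases, in Ctsd.

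**Figure D1:**
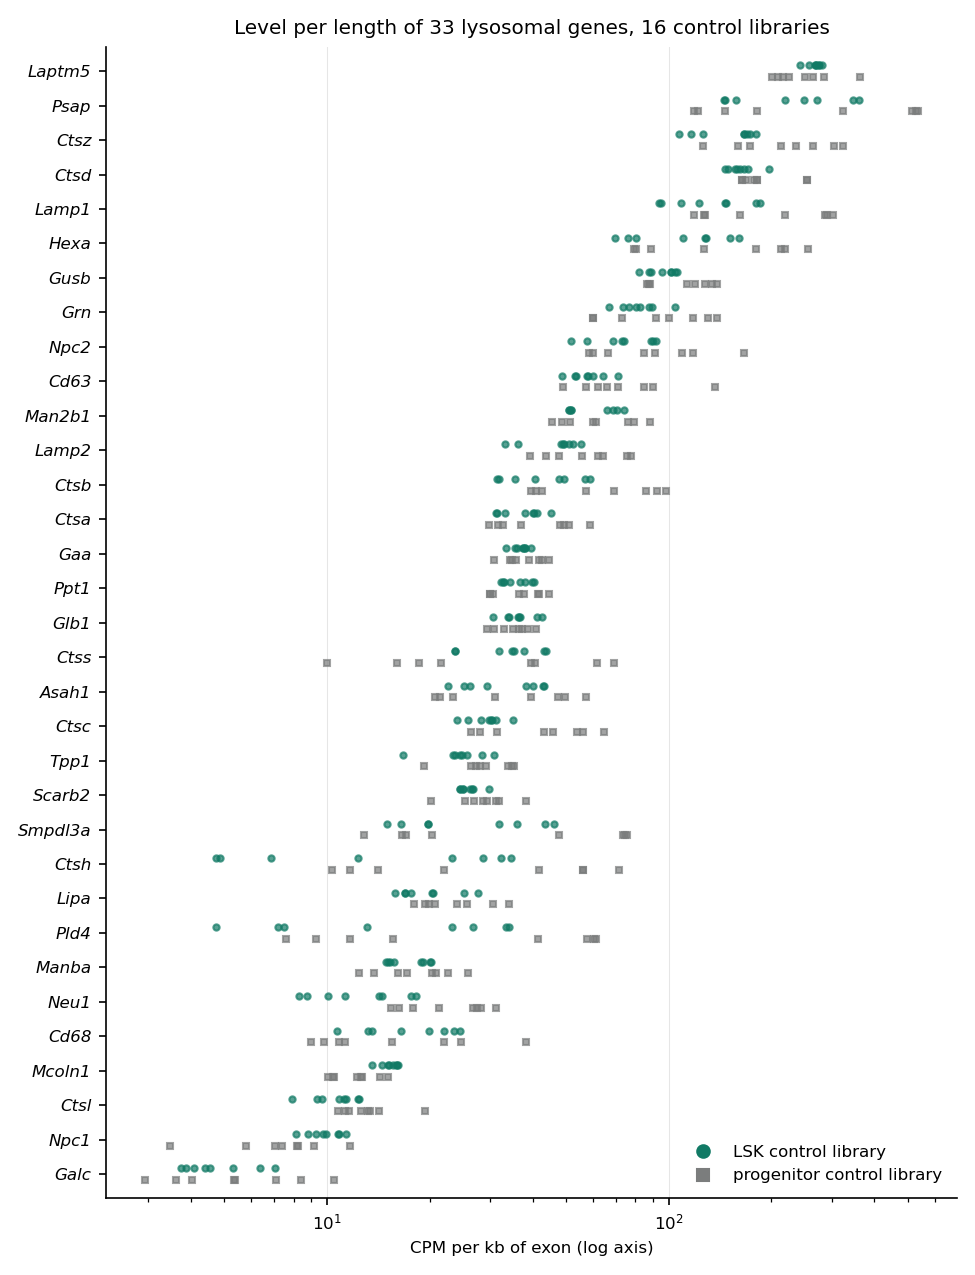
Levels of the 33 members in the 16 control libraries, in CPM per kb of exon on a log axis, with members ordered by their median. Circles are LSK libraries and squares progenitor libraries; Laptm5 is at the top with a median of 266 and Galc at the bottom with 4.94.

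In LSK cells lacking Kat7, 13 of the 33 members were higher and 2 were lower than in controls when the knockout effects of both Cre lines were averaged. Across the 14102 genes tested, 13.5% passed as higher and 14.3% as lower, so the members' share was above that background upward and below it downward. The median log2 difference of the members was 0.19, against 0.0086 over all genes tested. The risers were spread over roles: 5 of 8 glycosidases, 4 of 8 genes of lipid handling and progranulin, 2 of 9 peptidases and 2 of 8 membrane proteins. Their differences were modest, between 0.21 and 0.66 on the log2 scale.

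Man2b1, the lysosomal alpha-mannosidase, had the smallest p in this direction. It stood at 337, 375, 350.2 and 307 CPM in Mx1Cre knockouts, against 285, 306, 297 and 320.4 CPM in Mx1Cre controls. CreER knockouts had 279.6, 285, 329 and 308 CPM, against 221, 224, 224 and 221 CPM in CreER controls. The groups were apart in CreER mice and overlapped in Mx1Cre mice, and the mean log2 difference was 0.31 ± 0.053 (SE, adjusted p = 0.000392). Grn encodes progranulin, a secreted glycoprotein that is cut into granulins inside lysosomes. It reached 322, 238, 297 and 305 CPM in Mx1Cre knockouts, against 193, 208, 172 and 187 CPM in Mx1Cre controls, with no overlap. In CreER knockouts it was at 251, 241, 227 and 275 CPM, against 204, 157, 243 and 178 CPM in CreER controls, where 1 control lay among the knockouts. Its mean log2 difference was 0.48 ± 0.088 (SE, adjusted p = 0.000680).

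Manba, the beta-mannosidase that removes the last mannose of N-glycan cores, differed by 0.24 ± 0.054 (SE, adjusted p = 0.00284). Its levels were 92.9, 83.99, 78.2 and 82.1 CPM in Mx1Cre knockouts, against 70.4, 74.2, 69.4 and 73.5 CPM in Mx1Cre controls. Its levels were 68.01, 71.1, 67.996 and 61.1 CPM in CreER knockouts, against 56.3, 54.9, 57.8 and 55.6 CPM in CreER controls, so that knockouts lay above controls in both lines. Glb1, the lysosomal beta-galactosidase, differed by 0.28 ± 0.063 (SE, adjusted p = 0.00370). Mx1Cre knockouts had 105, 96.2, 99.04 and 102 CPM of Glb1, against 80.3, 85.4, 72.2 and 85.9 CPM in Mx1Cre controls. CreER knockouts had 116, 108, 98.004 and 107 CPM, against 97.1, 86.5, 100.3 and 80.05 CPM in CreER controls, where control 3 overlapped. The other glycosidases that rose were Gusb, beta-glucuronidase, by 0.21 (adjusted p = 0.0153) and Hexa, the alpha subunit of beta-hexosaminidase, by 0.26 (adjusted p = 0.0337).

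Of the remaining risers, Pld4, an exonuclease that degrades single-stranded nucleic acids, had the largest mean difference at 0.66 ± 0.16 (SE, adjusted p = 0.00598), followed by Ctsz at 0.50 ± 0.12 (SE, adjusted p = 0.00416). Lipa, the acid lipase that frees cholesterol from its esters, differed by 0.31 (adjusted p = 0.00463) and Ppt1, a thioesterase that removes palmitate from proteins, by 0.23 (adjusted p = 0.00831). Ctsa, a carboxypeptidase that also protects Glb1 and Neu1, differed by 0.22 (adjusted p = 0.00983), Lamp1 by 0.30 (adjusted p = 0.0103) and its paralogue Lamp2, needed for the fusion of autophagosomes with lysosomes, by 0.28 (adjusted p = 0.0366). The members that fell were Gaa, the acid alpha-glucosidase that digests glycogen, and Smpdl3a, an acid sphingomyelinase-like phosphodiesterase. Gaa had 135, 126, 128 and 122 CPM in Mx1Cre knockouts, against 142, 143, 144 and 144 CPM in Mx1Cre controls, and its mean log2 difference was -0.19 ± 0.052 (SE, adjusted p = 0.0133). In CreER mice it had 107, 129.7, 116.96 and 121 CPM in knockouts, against 151, 137, 127 and 135 CPM in controls, with an overlap at 1 library of each group. The mean difference of Smpdl3a was -0.32 ± 0.092 (SE, adjusted p = 0.0165), with -0.83 in Mx1Cre mice and 0.19, which did not pass, in CreER mice.

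**Figure D2:**
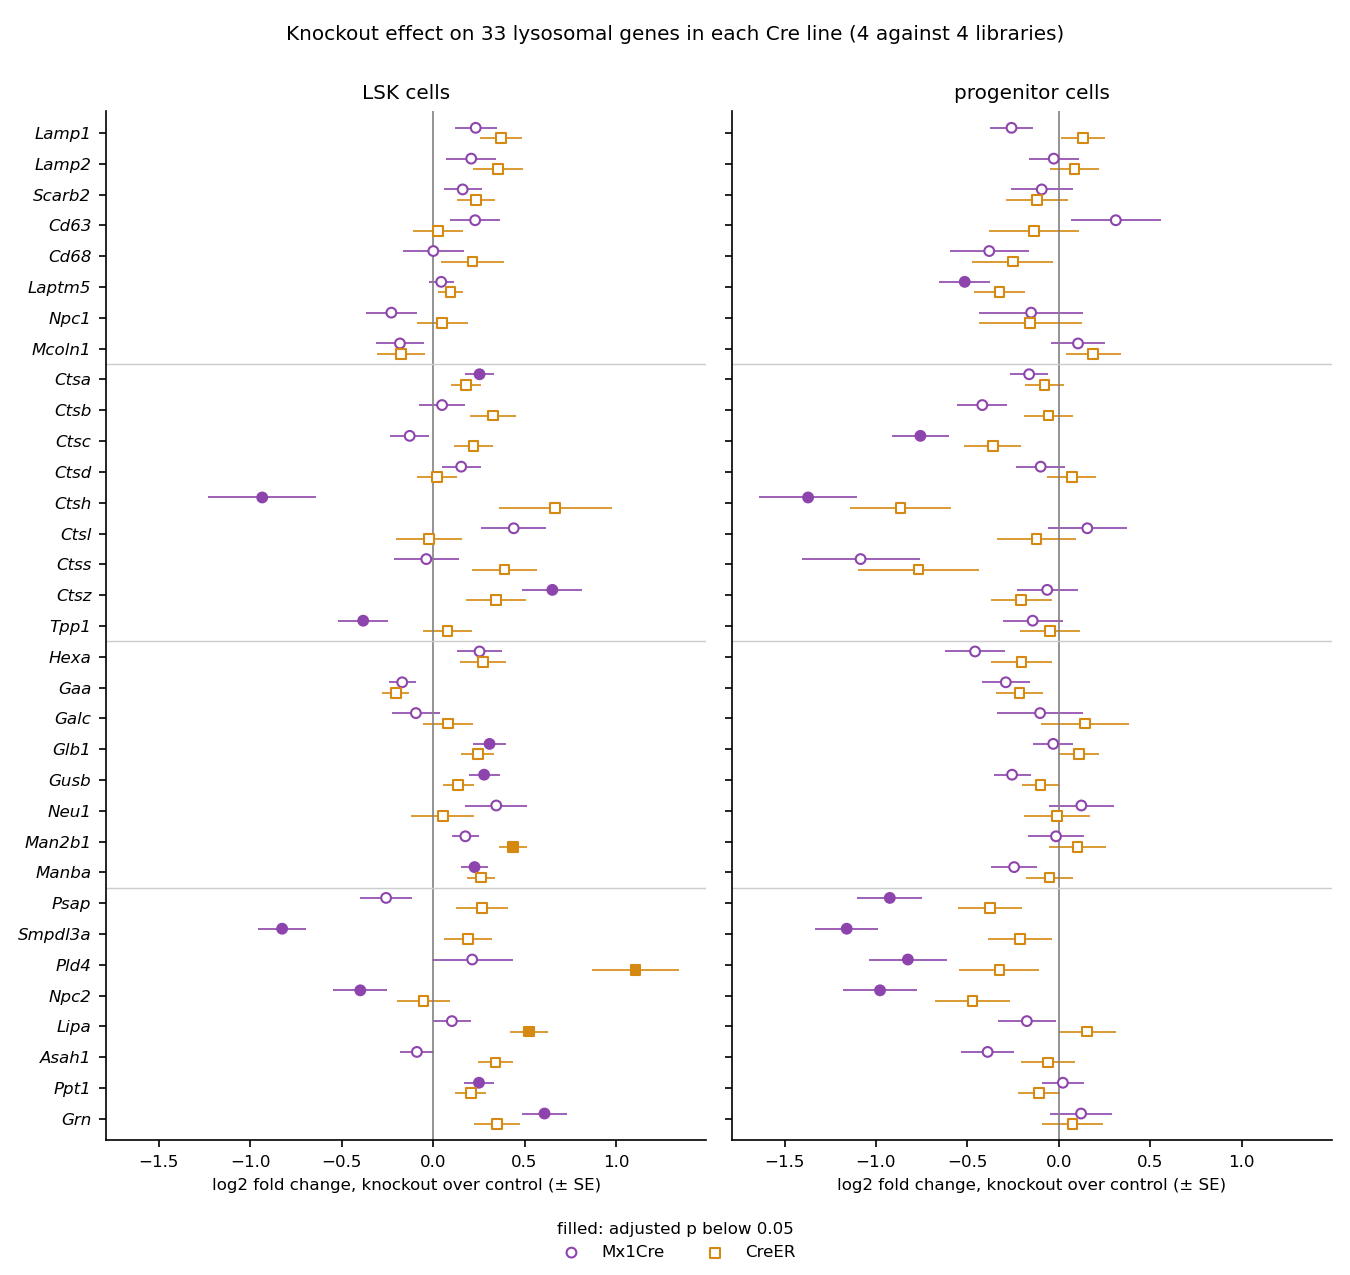
Log2 difference of knockout minus control for the 33 members, by population and Cre line, with bars of 1 SE and filled points for members called at an adjusted p below 0.05. Members are grouped by role; in LSK cells most points lie right of 0, and in progenitors most lie left of it.

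Without LSK CreER knockouts 2 and 3, 10 members rose and 2 fell in this averaged comparison, and Gusb, Hexa and Lamp2 were no longer called. Their differences without the pair were 0.17 for Gusb, 0.23 for Hexa and 0.25 for Lamp2. Leaving out any of 7 single libraries ended the call of Hexa (adjusted p between 0.0647 and 0.0898 with edgeR), and any of 8 that of Lamp2 (adjusted p between 0.0568 and 0.0897). The monocyte and macrophage marker list, 20 genes of which 19 were tested, had 4 genes higher and 1 lower in this comparison. Its summed level was 2295 to 2638 CPM in Mx1Cre knockouts, against 2439 to 2933 CPM in Mx1Cre controls, and 987 to 1986 CPM in CreER knockouts, against 654 to 1385 CPM in CreER controls, with no gene of the list at 0 throughout a group. Of 13 neutrophil granule genes 7 were higher, and of 9 LSK and stem cell genes 6 were lower. Megakaryocyte genes were lower for 5 of 7, at a summed 85.4 to 95.9 CPM in Mx1Cre knockouts, against 186 to 287 CPM in Mx1Cre controls, and at most 238 CPM in CreER knockouts, against at least 366 CPM in CreER controls. Mast cell and basophil genes were lower for 6 of 7, at 154 to 272 CPM in Mx1Cre knockouts, against 626 to 942 CPM in Mx1Cre controls, and 683 to 918 CPM in CreER knockouts, against 670 to 1638 CPM in CreER controls. Of 9 erythroid genes tested 5 were lower and 2 higher, at 90.9 to 149 CPM in Mx1Cre knockouts, against 200.3 to 634 CPM in Mx1Cre controls, and 479 to 627 CPM in CreER knockouts, against 564 to 779 CPM in CreER controls, where Slc4a1 was at 0. The part of these shifts in the members' differences was not tested.

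Within Mx1Cre mice alone, 7 members (21.2%) rose and 4 (12.1%) fell in knockout LSK cells. Over all genes 15.2% were called higher and 15.9% lower. The members' higher share was thus slightly above that of all genes, and their lower share did not reach it. The higher members were Grn (0.61 ± 0.12, SE), Ctsz (0.65 ± 0.16, SE), Glb1, Gusb, Ctsa, Ppt1 and Manba, and for these 7 the knockout and control libraries did not overlap, as for 14.5% of all genes tested in this direction and 73% of those called. Ctsz had 411, 285, 435 and 369 CPM in knockouts, against 232, 232, 252 and 237 CPM in controls (adjusted p = 0.00665). Gusb had 321, 286, 309 and 290.1 CPM in knockouts, against 250.5, 235, 256 and 249.7 CPM in controls, a log2 difference of 0.28 ± 0.084 (SE, adjusted p = 0.0187). Both genes thus had each of 4 knockout libraries above each of 4 control libraries. Smpdl3a fell the most clearly, with 39.1, 44.5, 38.1 and 37.98 CPM in knockouts, against 78.1, 82.95, 57.03 and 64.4 CPM in controls and a log2 difference of -0.83 ± 0.13 (SE, adjusted p = 0.000163). Ctsh, a cysteine protease with aminopeptidase activity, was at 26.1, 22.8, 21.7 and 30.7 CPM in knockouts, against 56.1, 52.6, 37.9 and 46.4 CPM in controls, and differed by -0.93 ± 0.29 (SE, adjusted p = 0.0225). Tpp1, a tripeptidyl peptidase, had 71.2, 78.04, 69.1 and 67.2 CPM in knockouts, against 99.3, 108, 81.7 and 82.8 CPM in controls, a difference of -0.38 ± 0.14 (SE, adjusted p = 0.0393). Npc2, the soluble carrier that hands cholesterol to Npc1, had 216, 170.4, 200.4 and 222 CPM in knockouts, against 289.7, 294, 238 and 242 CPM in controls, a difference of -0.40 ± 0.15 (SE, adjusted p = 0.0467). All 4 fallers had knockout libraries below every control library, as did 15% of all genes tested and 80.6% of those called lower. With a trend on transcript length removed, Tpp1 (adjusted p = 0.0640) and Npc2 (adjusted p = 0.1035) were not called. The slope of log2 CPM per doubling of length was -0.084, 0.022, -0.12 and -0.14 in Mx1Cre knockouts, against 0.036, 0.058, 0.025 and 0.044 in Mx1Cre controls, without overlap. Only Grn, Ctsz and Smpdl3a kept their call in edgeR without any single library: the higher count was 3 without control 3 or knockout 1 and 4 without control 4, and the lower count was 1 without control 1, control 2 or knockout 3 and 2 without knockout 1 or 4. With the replicate number as a block for the Mx1Cre libraries, Npc2 was no longer called (adjusted p = 0.0637).

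In CreER mice 3 members rose and 0 fell in knockout LSK cells, with 1.57% of all genes called higher and 1.59% lower. By edgeR at an unadjusted p under 0.05, 16 members were higher and 1 lower, and DESeq2 called 6 higher and 0 lower. The shares of all genes just given do not apply to these counts. The 3 members called by edgeR after adjustment were Man2b1 (0.44 ± 0.075 (SE, adjusted p = 0.00417)), Lipa and Pld4. Lipa stood at 67.1, 79.1, 73.8 and 66.7 CPM in CreER knockouts, against 52.5, 47.04, 50.2 and 50.2 CPM in CreER controls, and differed by 0.52 ± 0.11 (SE, adjusted p = 0.0109). Pld4 stood at 23.7, 46.5, 34.7 and 33.5 CPM in CreER knockouts, against 14.2, 9.37, 26.01 and 14.8 CPM in CreER controls, and differed by 1.11 ± 0.24 (SE, adjusted p = 0.0164). Lipa libraries were apart, whereas control 3 exceeded knockout 1 for Pld4. None of the 3 was called without knockouts 2 and 3, where the differences were 0.40 for Man2b1, 0.42 for Lipa and 0.83 for Pld4. Leaving out knockout 2 alone left 1 call, Man2b1, leaving out control 3 gave 6, and Pld4 was also lost without control 1, 2 or 4 (adjusted p between 0.0533 and 0.0717 with edgeR).

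The difference between the Cre lines in the LSK knockout effect was itself called for 2 members, both more negative in Mx1Cre, where 0.688% of all genes were called higher and 3.68% lower. For Smpdl3a the effect in Mx1Cre minus that in CreER was -1.02 ± 0.18 (SE, adjusted p = 0.00362): besides its fall in Mx1Cre mice, it had 40.2, 39.3, 34.6 and 30.7 CPM in CreER knockouts, against 35.4, 29.5, 35.5 and 26.96 CPM in CreER controls. For Ctsh the difference of effects was -1.60 ± 0.43 (SE, adjusted p = 0.0406), with 11.8, 32.7, 14.05 and 15.6 CPM in CreER knockouts, against 7.73, 7.94, 20.1 and 11.2 CPM in CreER controls. Neither gene passed in CreER mice alone, and their CreER groups overlapped. No member's effect was called more positive in Mx1Cre by edgeR; at an unadjusted p under 0.05 the counts were 0 higher and 9 lower, and with DESeq2 0 and 3. The Ctsh difference was not called without knockouts 2 and 3 (-1.17, adjusted p = 0.145) or without any of 10 single libraries (adjusted p between 0.0512 and 0.0913 with edgeR). Without CreER control 3, 4 members were called.

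**Figure D3:**
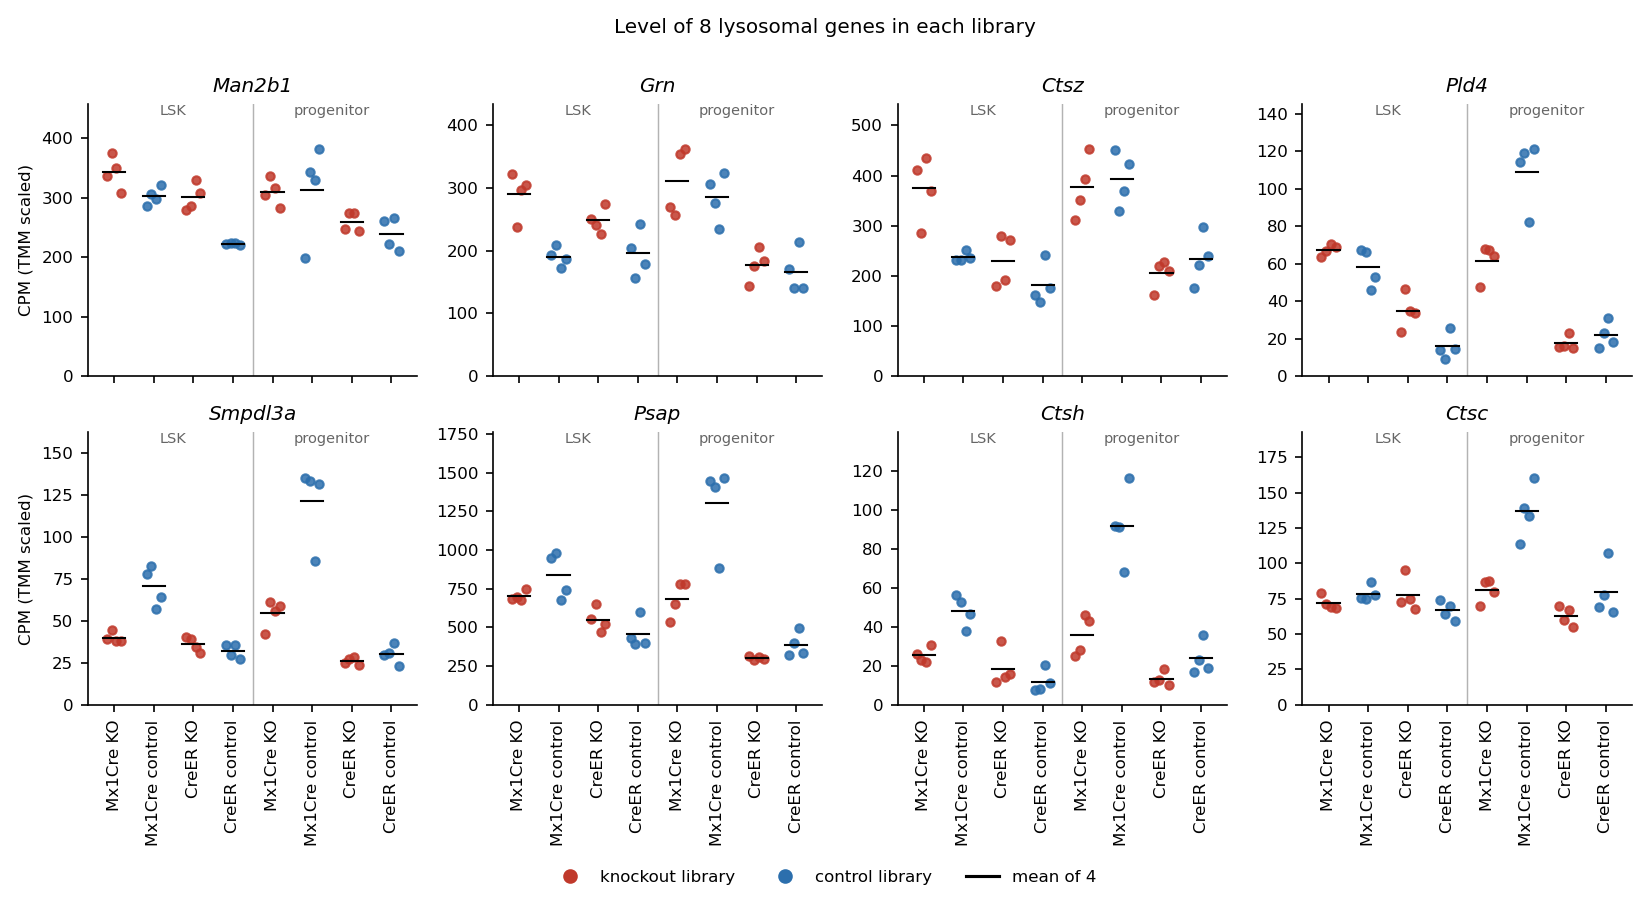
CPM in each of the 32 libraries, by group, for members named in the knockout comparisons; points are libraries and horizontal lines are group means, with knockouts left of their controls. Smpdl3a and Ctsh are lower in Mx1Cre knockouts than in Mx1Cre controls in both populations, while Grn is higher in LSK knockouts.

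In progenitors the direction differed: 8 of the 33 members fell and 0 rose in knockouts averaged over both Cre lines. Across the 13692 genes tested, 2.28% passed as higher and 5.51% as lower. The members' median log2 difference was -0.13, against -0.0082 over all genes. At an unadjusted p under 0.05, edgeR gave 0 members higher and 13 lower, and DESeq2 with adjustment called 0 higher and 8 lower. Fallers were 4 of 8 genes of lipid handling and progranulin (Smpdl3a, Psap, Npc2, Pld4), 3 of 9 peptidases (Ctsh, Ctsc, Ctss) and 1 of 8 membrane proteins (Laptm5), and no glycosidase was called.

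Ctsh had 25.1, 28.2, 45.95 and 42.97 CPM in Mx1Cre knockout progenitors, against 91.4, 91.1, 67.8 and 116 CPM in Mx1Cre controls. CreER knockouts had 11.5, 12.6, 18.5 and 9.94 CPM of Ctsh, against 16.9, 23.01, 35.8 and 18.97 CPM in CreER controls. The Mx1Cre groups were apart and the CreER groups overlapped, and the mean log2 difference was -1.12 ± 0.19 (SE, adjusted p = 0.00158). Smpdl3a was at 41.96, 61.2, 55.9 and 58.9 CPM in Mx1Cre knockouts, against 135, 134, 85.6 and 132 CPM in Mx1Cre controls, and at 24.9, 27.5, 28.2 and 23.8 CPM in CreER knockouts, against 29.7, 30.5, 36.5 and 23.03 CPM in CreER controls. Its mean difference was -0.69 ± 0.12 (SE, adjusted p = 0.00206), and only the Mx1Cre groups were apart. Psap had 536, 651, 782 and 778 CPM in Mx1Cre knockouts, against 1448, 1410.3, 882 and 1468 CPM in Mx1Cre controls. For CreER, Psap had 315, 291, 309 and 294 CPM in knockouts, against 324, 401, 496 and 333 CPM in controls. Knockouts were below controls without overlap in both lines, and the mean difference was -0.65 ± 0.13 (SE, adjusted p = 0.00360).

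Ctsc, a dipeptidyl peptidase that activates granule serine proteases, was at 69.9, 86.6, 87.8 and 79.7 CPM in Mx1Cre knockouts, against 114, 139, 134 and 161 CPM in Mx1Cre controls. Its CreER knockouts had 69.6, 60.1, 66.7 and 55.1 CPM, against 69.4, 77.7, 107 and 65.5 CPM in CreER controls. The Mx1Cre groups did not overlap, the CreER groups did, and the mean difference was -0.56 ± 0.11 (SE, adjusted p = 0.00404). Npc2 was at 151, 188, 193 and 262 CPM in Mx1Cre knockouts, against 543, 357, 276 and 385 CPM in Mx1Cre controls, and at 166, 162, 163 and 167 CPM in CreER knockouts, against 191, 197, 298 and 218 CPM in CreER controls. Its groups were apart in both lines, with a mean difference of -0.72 ± 0.14 (SE, adjusted p = 0.00453). The others were Laptm5 at -0.42 ± 0.099 (SE, adjusted p = 0.0138), Ctss, a cysteine protease of antigen-presenting cells, at -0.93 ± 0.23 (SE, adjusted p = 0.0196), and Pld4 at -0.58 ± 0.15 (SE, adjusted p = 0.0283).

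Considered alone, Mx1Cre progenitors gave 7 lower members and 0 higher, with 4.49% of all genes called lower and 1.59% higher. Unadjusted edgeR counts were 0 higher and 14 lower, and DESeq2 counts 0 and 9. Members called were Smpdl3a (-1.16 ± 0.17 (SE, adjusted p = 0.000554)), Psap (-0.92 ± 0.18 (SE, adjusted p = 0.00441)), Ctsh (-1.37 ± 0.27 (SE, adjusted p = 0.00507)), Ctsc (-0.76 ± 0.16 (SE, adjusted p = 0.00702)), Npc2, Pld4 and Laptm5, which were also 7 of the 8 called in the average. Knockout and control libraries did not overlap for 6 of the 7, Laptm5 being the exception, and knockouts lay below controls without overlap for 6.05% of all genes tested and 85.4% of those called lower. The sum over all 33 members was 5900.0 ± 357 CPM in Mx1Cre knockouts and 7645 ± 915 CPM in Mx1Cre controls (SD, n = 4 each), a description without a test. CreER progenitors gave 0 calls in either direction, where 0.0365% of all genes were called higher and 0.131% lower. There, edgeR at an unadjusted p under 0.05 had 0 members higher and 6 lower, and DESeq2 called 0. The largest CreER difference was that of Ctsh, -0.87 ± 0.27 (SE, adjusted p = 0.300). The difference between the Cre lines in the progenitor effect was called for 0 members by edgeR, with 0.0657% of all genes higher and 0.234% lower. Its unadjusted counts were 0 higher and 3 lower and its DESeq2 counts 0 and 1, so the test did not separate the lines.

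The mean Pld4 call ended without any of 8 single libraries (adjusted p between 0.0525 and 0.0662 with edgeR), and in Mx1Cre alone Pld4 lost its call without any of 5 (0.0501 to 0.103) and Laptm5 without any of 9 (0.0513 to 0.138). Without progenitor Mx1Cre control 1 and knockout 4, 9 members fell. Of the monocyte and macrophage markers, 6 of 15 tested were lower and 1 higher in knockouts averaged over both lines. Their summed level was 2673 to 5296 CPM in Mx1Cre knockouts, against 4727 to 7495 CPM in Mx1Cre controls, and 860 to 1626 CPM in CreER knockouts, against 1019 to 2172 CPM in CreER controls. Of the macrophage complement genes in that list, C1qa was at 0 in the Mx1Cre knockouts, and C1qb and C1qc were at 0 in the Mx1Cre controls. Megakaryocyte genes summed to 56.5 to 73.1 CPM in Mx1Cre knockouts, against 35.4 to 43.8 CPM in Mx1Cre controls. In CreER mice they summed to 96.4 to 214 CPM in knockouts, against 180.1 to 374 CPM in controls. B cell genes summed to 9.64 to 14.9 CPM in Mx1Cre knockouts, against 30.2 to 49.8 CPM in Mx1Cre controls. In CreER mice these were at 10.7 to 14.8 CPM in knockouts, against 17.2 to 29.2 CPM in controls. Erythroid genes summed to 899.96 to 1475 CPM in Mx1Cre knockouts, against 325 to 2404 CPM in Mx1Cre controls. In CreER mice they summed to 1516 to 2320 CPM in knockouts, against 1295 to 2059 CPM in controls. Neutrophil granule genes summed to 30599 to 50948 CPM in Mx1Cre knockouts, against 37177 to 52231 CPM in Mx1Cre controls. Their CreER sums were 9909 to 24216 CPM in knockouts, against 14200 to 25689 CPM in controls. The part of these lists, monocyte genes included, in the members' fall was not tested.

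The knockout effect was more positive in LSK cells than in progenitors for 10 members and more negative for 0, as tested by the interaction over all 32 libraries. Across the 14459 genes tested, 1.10% passed as more positive in LSK cells and 1.42% as more negative. At an unadjusted p under 0.05 the edgeR counts were 22 and 1, and with DESeq2 11 and 0. Median differences of effects were 0.34 for the members and 0.023 for all genes. By role they were 4 peptidases, 3 glycosidases, 2 genes of lipid handling and 1 membrane protein.

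Pld4 had the largest difference of effects, 1.23 ± 0.23 (SE, adjusted p = 0.00351). In LSK cells it was at 63.7, 67.1, 70.8 and 68.8 CPM in Mx1Cre knockouts, against 67.4, 66.2, 45.98 and 52.9 CPM in Mx1Cre controls, with an overlap; the CreER values are given above. In progenitors it was at 47.6, 68.001, 67.4 and 64.005 CPM in Mx1Cre knockouts, against 114, 119, 82.1 and 121 CPM in Mx1Cre controls. Progenitor CreER knockouts had 15.8, 16.3, 23.4 and 15.1 CPM, against 15.001, 23.1, 30.99 and 18.4 CPM in CreER controls. Pld4 was thus called higher in LSK knockouts and lower in progenitor knockouts, averaged over the lines. By line, however, the LSK rise was called only in CreER mice and the progenitor fall only in Mx1Cre mice. Neither line had both calls. Ctsc differed by 0.60 ± 0.13 (SE, adjusted p = 0.0112): LSK knockouts had 79.1, 71.2, 69.3 and 68.7 CPM in Mx1Cre mice, against 75.5, 74.96, 86.4 and 77.5 CPM in controls, and CreER knockouts had 72.3, 95.5, 74.98 and 67.4 CPM, against 73.8, 64.1, 70.1 and 59.4 CPM in controls. LSK groups overlapped in both lines, and the fall was in progenitors.

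Laptm5 differed by 0.48 ± 0.11 (SE, adjusted p = 0.0121). Progenitor levels were 429, 544, 475 and 437 CPM in Mx1Cre knockouts, against 502, 685, 633 and 873 CPM in Mx1Cre controls, and 457, 427, 446 and 395 CPM in CreER knockouts, against 539, 518, 599.8 and 483 CPM in CreER controls. LSK levels were 638, 680.4, 608 and 662 CPM in Mx1Cre knockouts, against 582, 661, 616 and 646 CPM in Mx1Cre controls, and 681, 711, 692 and 708 CPM in CreER knockouts, against 674, 661, 642 and 645 CPM in CreER controls. Progenitor knockouts were thus below controls in CreER mice without overlap, and LSK differences stayed within 0.10 on the log2 scale in each line. Gusb differed by 0.38 ± 0.086 (SE, adjusted p = 0.0143), with progenitor levels of 253, 273, 264 and 281 CPM in Mx1Cre knockouts, against 329, 315, 293 and 339.6 CPM in Mx1Cre controls. In CreER progenitors it had 214, 227, 220.3 and 208 CPM in knockouts, against 215, 217, 278 and 212 CPM in controls, and in CreER LSK cells 244, 267, 245 and 226 CPM in knockouts, against 215, 218, 260.5 and 201 CPM in controls. Of these groups, only the Mx1Cre ones were apart. The other 6 were Ctss (1.10), Psap (0.65), Ctsz (0.62), Hexa (0.59), Manba (0.38) and Ctsa (0.33), with adjusted p between 0.0255 and 0.0447.

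**Figure D4:**
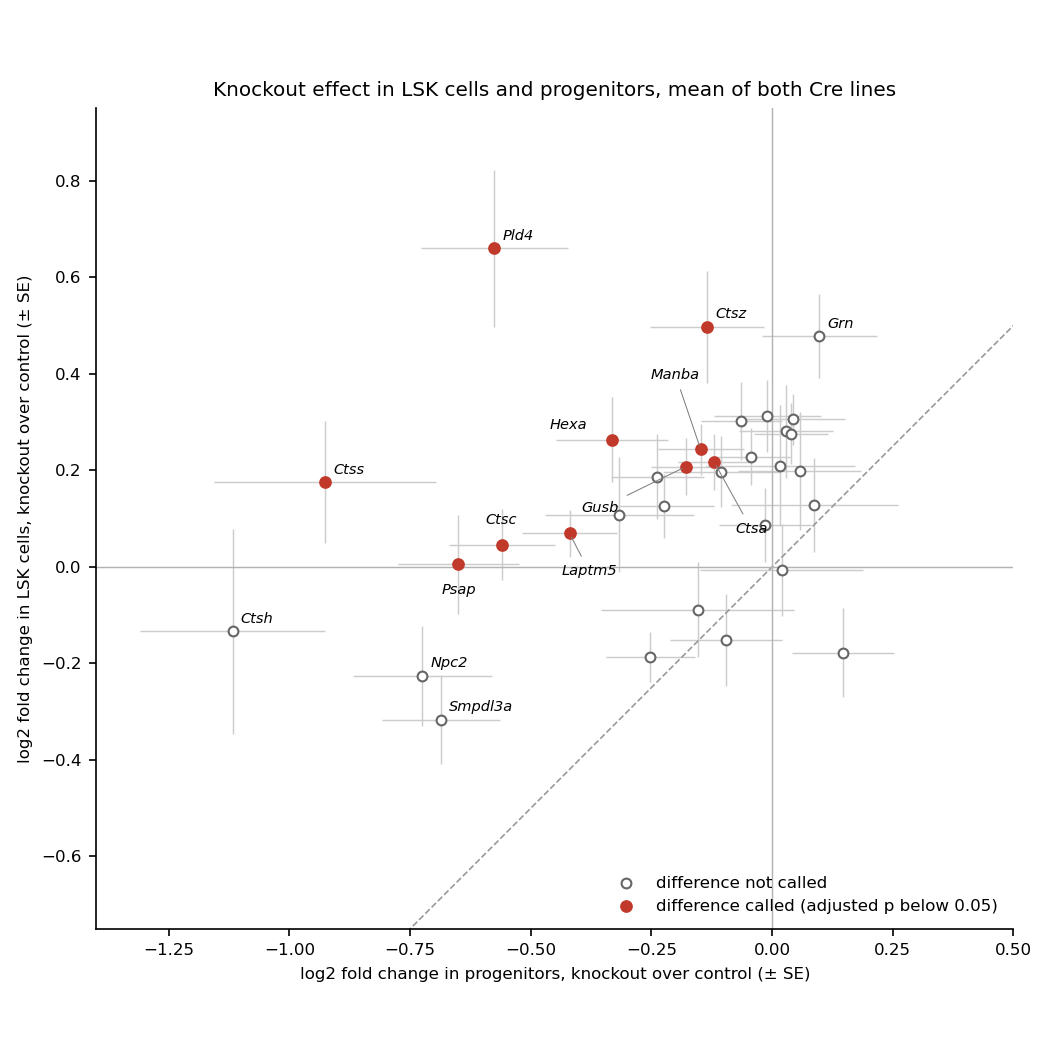
Knockout effect in LSK cells (vertical axis) against that in progenitors (horizontal axis) for the 33 members, as log2 differences averaged over both Cre lines. Filled points mark the 10 members whose effect differed between the populations; all lie above the diagonal, Pld4 farthest with a difference of 1.23.

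Without LSK CreER knockouts 2 and 3, 1 member, Pld4, was called (adjusted p = 0.0250). The differences of the other 9 were 0.32 to 1.11 without the pair, against 0.33 to 1.10 with all libraries, at an adjusted p between 0.0549 and 0.128. With the mouse as a block for both populations the count was 15, and 13 with the block and without the pair. Pld4, Ctsc, Laptm5 and Gusb kept their call without any single library; the count was 5 without LSK CreER control 2, control 4 or knockout 2 or progenitor Mx1Cre control 4 or knockout 1, and 4 without progenitor CreER control 3. Of the monocyte and macrophage markers, 6 of 19 also had a more positive effect in LSK cells and 0 a more negative one. A more negative effect in LSK cells was called for 4 of 7 megakaryocyte, 3 of 10 erythroid and 1 of 7 mast cell and basophil genes and a more positive one for 0. The part of these lists in the members' difference was not tested.

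Between control groups, Mx1Cre LSK cells had higher levels than CreER LSK cells for 15 of the 33 members and lower levels for 0, with 21.7% of all genes called in either direction and 11.7% higher. The median log2 difference was 0.33 over the members. By edgeR at an unadjusted p under 0.05, 19 members were higher and 0 lower, and DESeq2 called 15 and 0. Smpdl3a stood at 78.1, 82.95, 57.03 and 64.4 CPM in Mx1Cre controls, against 35.4, 29.5, 35.5 and 26.96 CPM in CreER controls, a difference of 1.17 ± 0.13 (SE, adjusted p = 9.64e-06). Pld4 stood at 67.4, 66.2, 45.98 and 52.9 CPM in Mx1Cre controls, against 14.2, 9.37, 26.01 and 14.8 CPM in CreER controls, a difference of 1.87 ± 0.24 (SE, adjusted p = 3.34e-05). For both genes every Mx1Cre control lay above every CreER control. Asah1, the acid ceramidase, had 90.1, 97.3, 96.8 and 86.02 CPM in Mx1Cre controls, against 66.1, 59.1, 56.7 and 51.02 CPM in CreER controls, and differed by 0.69 ± 0.095 (SE, adjusted p = 6.96e-05). Ctsh had 56.1, 52.6, 37.9 and 46.4 CPM in Mx1Cre controls, against 7.73, 7.94, 20.1 and 11.2 CPM in CreER controls, and differed by 2.05 ± 0.31 (SE, adjusted p = 0.000163). The other 11 were Man2b1, Psap, Hexa, Lamp1, Ctsb (a cysteine endopeptidase), Manba, Lipa, Neu1 (the lysosomal sialidase), Cd68 (a macrophage-rich LAMP relative), Galc and Ctsa, with differences between 0.33 and 0.89. The libraries of the 2 groups did not overlap for any of the 15, as for 13.7% of all genes tested in this direction and 87.7% of those called higher, and the 15 calls held without each single library and without knockouts 2 and 3.

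Progenitor controls differed in the same direction, with 21 members higher in Mx1Cre than in CreER and 0 lower, while 25.3% of all genes were called in either direction and 14.3% higher. The members' median was 0.66, against 0.016 over all genes. Counts at an unadjusted p under 0.05 in edgeR were 25 higher and 0 lower, and DESeq2 called 21 and 0. Smpdl3a had 135, 134, 85.6 and 132 CPM in Mx1Cre controls, against 29.7, 30.5, 36.5 and 23.03 CPM in CreER controls (2.02 ± 0.18 (SE, adjusted p = 4.62e-06)). Pld4 had 114, 119, 82.1 and 121 CPM in Mx1Cre controls, against 15.001, 23.1, 30.99 and 18.4 CPM in CreER controls (2.32 ± 0.22 (SE, adjusted p = 8.05e-06)). Each Mx1Cre control was again above each CreER control. Psap had 1448, 1410.3, 882 and 1468 CPM in Mx1Cre controls, against 324, 401, 496 and 333 CPM in CreER controls (1.75 ± 0.18 (SE, adjusted p = 1.44e-05)), and Mx1Cre control 3 was well below its group. Lamp1 had 681, 645, 494 and 657 CPM in Mx1Cre controls, against 288, 286, 366 and 268 CPM in CreER controls (1.04 ± 0.12 (SE, adjusted p = 3.95e-05)). Also higher were Hexa, Ctsh, Ctsb, Asah1, Ctsa, Cd68, Ctss, Ctsc, Manba, Gusb, Grn, Ctsz, Lamp2, Galc, Npc2, Neu1 and Ppt1, by 0.38 to 1.96. Libraries were apart for 19 of the 21, Galc and Npc2 overlapping, against 13% of all genes tested in this direction and 76.6% of those called higher. Ppt1 lost its call without any of 4 single libraries (adjusted p between 0.0603 and 0.0697 with edgeR).

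Both populations shared 13 of these calls: Asah1, Cd68, Ctsa, Ctsb, Ctsh, Galc, Hexa, Lamp1, Manba, Neu1, Pld4, Psap and Smpdl3a. That is 13 of the 15 LSK calls and 13 of the 21 progenitor calls, from the same mice. Of the 8 members that fell in knockout progenitors, 7 were among those higher in Mx1Cre than in CreER progenitor controls. Of all 33 members 21 were higher there, and shares over all genes were not taken for these overlaps. The knockout and control comparisons share the control libraries, so only their values are set side by side. For Ctsh the knockout difference was -1.12 and the control difference 1.96, and for Psap -0.65 and 1.75.

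**Figure D5:**
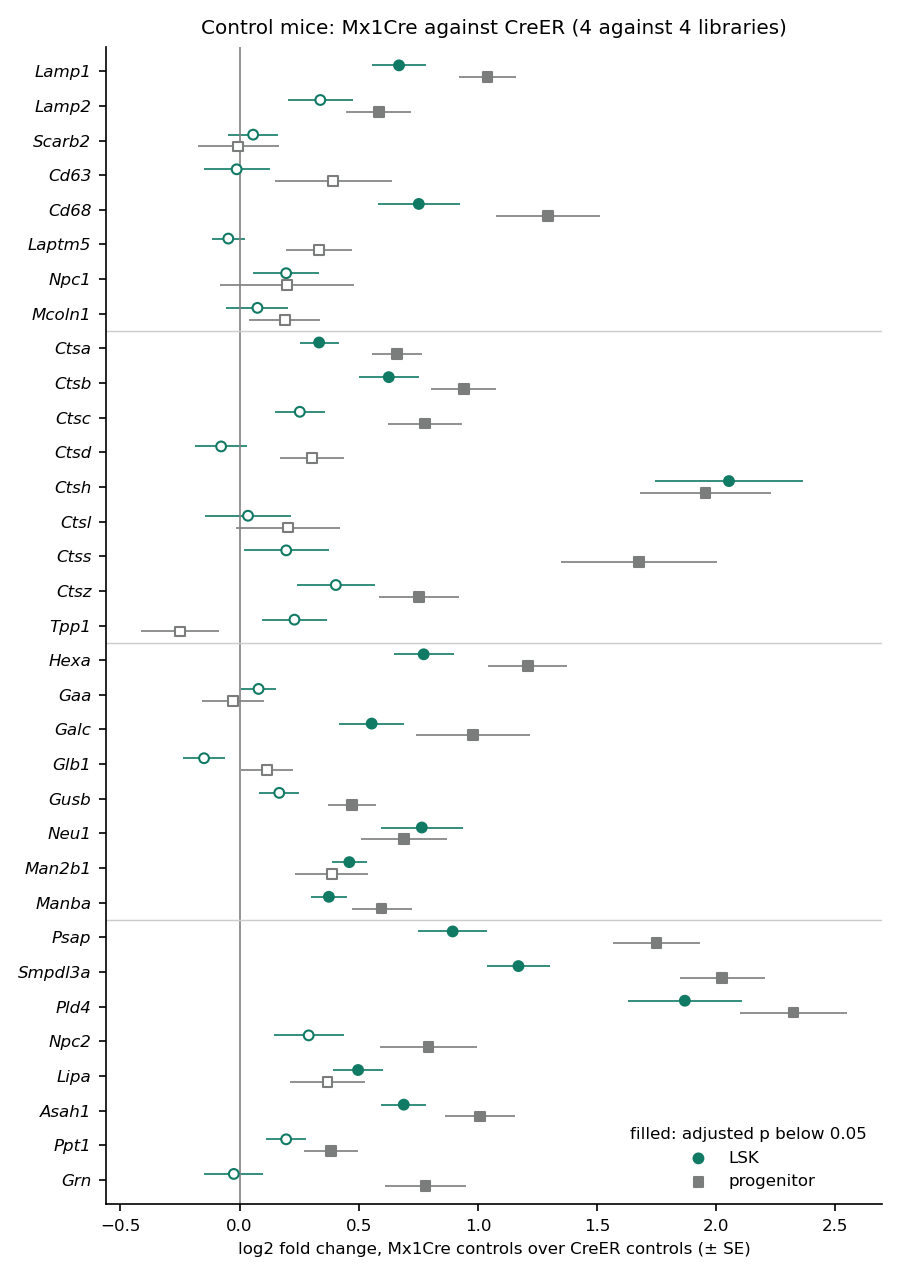
Log2 difference of Mx1Cre minus CreER controls for the 33 members, in LSK cells and in progenitors, with bars of 1 SE and filled points for members called at an adjusted p below 0.05. There were 15 higher members in LSK cells and 21 in progenitors, and no member was called lower.

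Marker lists also separated the Cre lines' controls. Neutrophil granule genes summed to 19114 to 21365 CPM in Mx1Cre LSK controls, against 4926 to 11163 CPM in CreER LSK controls, and 13 of 13 were higher. In progenitors they summed to 37177 to 52231 CPM in Mx1Cre controls, against 14200 to 25689 CPM in CreER controls, with 12 of 13 higher. Monocyte and macrophage genes summed to 2439 to 2933 CPM in Mx1Cre LSK controls, against 654 to 1385 CPM in CreER LSK controls, with 11 of 19 tested higher, and 12 of 15 were higher in progenitors. Interferon-stimulated genes ran the other way, at 305 to 413 CPM in Mx1Cre LSK controls, against 1568 to 2966 CPM in CreER LSK controls, with 16 of 16 lower. In progenitors these genes were at 264 to 448 CPM in Mx1Cre controls, against 1195 to 2357 CPM in CreER controls, with 15 of 16 lower. Megakaryocyte genes were lower in Mx1Cre controls for 3 of 7 in LSK cells and 5 of 6 tested in progenitors, where they summed to 35.4 to 43.8 CPM in Mx1Cre controls, against 180.1 to 374 CPM in CreER controls. Mast cell and basophil genes were lower for 2 of 7 in LSK cells and 4 of 7 in progenitors, where they summed to 147 to 198 CPM in Mx1Cre controls, against 490.1 to 1077 CPM in CreER controls. The part of these lists in the members' differences was not tested.

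LSK controls had lower levels than progenitor controls for 14 members and a higher level for 1, averaged over both Cre lines. This comparison called 17.4% of all genes higher and 17.3% lower, so the lower share of the members exceeded the background and the higher share did not reach it. The members' median was -0.21, against -0.027 over all genes. Lamp1 had 406, 417, 332 and 331 CPM in LSK and 681, 645, 494 and 657 CPM in progenitor controls of Mx1Cre mice. In CreER mice it had 245, 211, 276 and 215 CPM in LSK and 288, 286, 366 and 268 CPM in progenitor controls. LSK values were below progenitor values in Mx1Cre mice without overlap and overlapped in CreER mice, and the mean log2 difference was -0.54 ± 0.081 (SE, adjusted p = 6.72e-06). Neu1 had 67.97, 70.1, 54.7 and 55.8 CPM in LSK and 120.1, 109, 103 and 106 CPM in progenitor controls of Mx1Cre mice. The CreER values were 33.8, 31.9, 43.5 and 38.8 CPM in LSK and 59.3, 68.7, 82.3 and 62.7 CPM in progenitor controls, without overlap in either line, for a difference of -0.85 ± 0.13 (SE, adjusted p = 1.01e-05). Ctsb had 270.3, 279, 227 and 235 CPM in LSK and 407, 437, 329 and 467 CPM in progenitor controls of Mx1Cre mice. For CreER, Ctsb had 169, 149, 193 and 152 CPM in LSK and 194, 202, 272 and 187 CPM in progenitor controls, and the difference was -0.53 ± 0.093 (SE, adjusted p = 5.66e-05). Only its Mx1Cre groups were apart.

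Ctsc differed by -0.53 ± 0.093 (SE, adjusted p = 6.51e-05) in these controls. Further members lower in LSK cells were Ctsh, Ctsz, Pld4, Hexa, Gusb, Smpdl3a, Lamp2, Lipa, Ctsd and Cd63, a tetraspanin of late endosomes, by -0.97 to -0.20 on the log2 scale. The member higher in LSK controls was Mcoln1, the lysosomal calcium channel TRPML1. It had 32.01, 32.1, 30.3 and 30.5 CPM in LSK and 20.3, 28.6, 30.3 and 25.3 CPM in progenitor controls of Mx1Cre mice, and 29.1, 27.2, 31.3 and 32.4 CPM in LSK and 24.6, 21.1, 20.9 and 25.2 CPM in progenitor controls of CreER mice. CreER groups were apart, the Mx1Cre groups met, with the lowest LSK library level with the highest progenitor library, and the mean difference was 0.32 ± 0.10 (SE, adjusted p = 0.0132). With the mouse as a block, 2 members were higher and 17 lower. Single libraries decided the calls of Cd63 (7 libraries), Lipa (6), Ctsd (9) and Lamp2 (2), with adjusted p up to 0.139 in edgeR. Without LSK CreER knockouts 2 and 3, which belong to neither group compared but enter the fit, 11 members were lower, and Cd63 (-0.36, adjusted p = 0.0595), Lipa (-0.24, adjusted p = 0.0659) and Ctsd (-0.21, adjusted p = 0.0638) were not called. Monocyte and macrophage genes were lower in LSK controls for 9 of 19 and higher for 2, neutrophil granule genes were lower for 13 of 13, erythroid genes were lower for 8 of 10, megakaryocyte genes were higher for 6 of 7, and their part was not tested.

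Other genes of lysosomes, 106 in a separate list of which 104 were tested, gave 23 higher and 13 lower genes in LSK knockouts averaged over both lines, and 1 higher and 11 lower in progenitor knockouts. Over all genes tested 13.5% were higher and 14.3% lower in LSK knockouts, and 2.28% higher and 5.51% lower in progenitor knockouts. In LSK knockouts Tfeb, a regulator of lysosomal genes, differed by 0.57 ± 0.083 (SE, adjusted p = 8.39e-05), and its relative Tfec by 0.60 ± 0.12 (SE, adjusted p = 0.00113). Tfeb had 39.8 ± 5.75 CPM in Mx1Cre knockouts and 24.9 ± 2.78 CPM in Mx1Cre controls, and 26.5 ± 1.85 CPM in CreER knockouts and 19.3 ± 0.611 CPM in CreER controls (SD, n = 4 each). Of the 16 genes for the V-ATPase proton pump 8 rose and 1 fell, among them Atp6v0c (0.55 ± 0.11 (SE, adjusted p = 0.00133)). Lamtor4, of the Ragulator complex that places mTORC1 on lysosomes, differed by 0.63 ± 0.12 (SE, adjusted p = 0.000693). Igf2r, the large mannose 6-phosphate receptor, fell by 1.15 on the log2 scale, and in Mx1Cre mice alone it had 2.32 ± 1.43 CPM in knockouts and 11.6 ± 4.09 CPM in controls. Its effect differed between the Cre lines by -2.21 ± 0.43 (SE, adjusted p = 0.00640). Laptm4b, a relative of Laptm5, was lower in both populations, by -1.09 ± 0.15 (SE, adjusted p = 3.54e-05) in LSK cells and -1.84 ± 0.26 (SE, adjusted p = 0.000277) in progenitors.

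In progenitor knockouts the other lysosomal genes with the clearest falls included the serine carboxypeptidases Scpep1, at -1.13 ± 0.12 (SE, adjusted p = 1.84e-05), and Prcp, at -0.60 ± 0.085 (SE, adjusted p = 0.000287). The gene that rose was Wipi1, a phosphoinositide-binding protein of autophagy, at 0.70 ± 0.13 (SE, adjusted p = 0.00329). For Scpep1 the knockout effect was more positive in LSK cells than in progenitors by 0.91 ± 0.15 (SE, adjusted p = 0.000812). In Mx1Cre over CreER controls, 30 of these genes were higher and 1 lower in LSK cells, and 44 were higher and 3 lower in progenitors, with Tfec at 1.43 and Tfeb at 1.28 in progenitors. Over all genes, the higher share between these controls was 11.7% in LSK cells and 14.3% in progenitors. Between LSK and progenitor controls 11 were higher and 35 lower, where 17.4% of all genes were higher and 17.3% lower.

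Members with a CACGTG match in their promoter window were called higher in LSK knockouts in 3 of 7 cases and lower in 1, and those without it were called higher in 10 of 21 and lower in 0. In progenitor knockouts 0 of 7 with the match and 6 of 21 without it fell. With GAGGAAG 2 of 5 fell, Laptm5 and Ctsc, and without it 4 of 23. Members called in none of the comparisons were Scarb2, the sorting receptor for glucocerebrosidase, Npc1, and Ctsl, a cysteine endopeptidase.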

How the data were processed

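RNA of sorted cells (50 ng) was turned into libraries that were read from both ends at 80 bp, per the labels' protocols. Gene counting used featureCounts and the mm10 build, per the submitters' processing notes; which aligner, annotation and strandedness were used is not given in the sources used here. As deposited, values are raw counts per gene with exon lengths, for 27179 genes. Symbols came from a RefSeq table of GRCm38.p6 for 25275 genes; the other 1904 carried 3.92% of counts and were kept in the tests. Each of 32 library tables was identical to its column in the series table, and 0 columns were left unused. Without molecular identifiers, reads may repeat the same molecule, so precision from counts covers counting error only.

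Counts were fitted with edgeR 4.0.16 in R 4.3.3: TMM normalization, the filter on low counts (at least 10 in enough libraries, 15 in total), its quasi-likelihood test, and p-values adjusted by Benjamini-Hochberg over all genes tested, called below 0.05. The 16 libraries of a population entered its fit, and all 32 the comparisons of populations. The fit was tested on simulated data, where 52% of genes changed 1.5-fold and 89% of those changed 2-fold were recovered for LSK CreER knockouts over controls. Alternatives were DESeq2 1.42.0, its size factors, other filters, sex as a covariate, removal of a length trend, blocks, and left-out libraries. Members and lists were chosen with earlier results of these data known. Values per library are given for up to 4 called members per direction with the lowest p in each comparison, and up to 3 called genes per direction come from each other list.

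Replicate numbers of knockouts and controls deviated together in every pair only in LSK Mx1Cre mice (correlations 0.13 to 0.24), so that block is printed only where it changed a call. In Mx1Cre groups replicates 1 and 2 were labelled female and 3 and 4 male, so the number goes with sex there. In progenitors, where the numbers did not pair, the block ended the Laptm5 call in Mx1Cre mice (adjusted p = 0.0646 with edgeR). The mouse pairs LSK with progenitor libraries, since each mouse gave both; same-mouse libraries correlated at 0.12 to 0.43, except for CreER knockouts 2 (-0.094) and 3 (-0.063).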

Additional observations from a re-analysis of the deposited data

Results flagged for a closer look

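In 11 of 264 group values 1 library stood far from the other 3 by Dixon's criterion, which chance gives in about 5% of groups. In LSK cells these were Cd63 in CreER knockout 3, at 53.3 CPM against 64.8 to 65.8 in the others, Ctsb in Mx1Cre knockout 1 (313.1 against 238 to 249), Galc in Mx1Cre knockout 4 (16.6 against 21.2 to 21.8), Tpp1 in CreER control 3 (58.3 against 85.9 to 90.2) and Ppt1 in CreER control 3 (91.7 against 80.8 to 82.3). In progenitors they were Pld4 in CreER knockout 3 (23.4 against 15.1 to 16.3), Ppt1 in CreER knockout 3 (90.8 against 68.2 to 69.8), Ppt1 in CreER control 3 (91.2 against 74.9 to 76.5), Gusb in CreER control 3 (278 against 212 to 217), Psap in Mx1Cre control 3 (882 against 1410.3 to 1468) and Smpdl3a in Mx1Cre control 3 (85.6 against 131 to 135). CreER control mouse 3 and progenitor Mx1Cre control 3 held 6 of the 11.

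A tested difference between groups was found for 12 results. The LSK knockout effect in Mx1Cre minus that in CreER was -1.60 on the log2 scale for Ctsh and -1.02 for Smpdl3a. The knockout effect in LSK cells minus that in progenitors was 1.23 for Pld4, 1.10 for Ctss, 0.65 for Psap, 0.62 for Ctsz, 0.60 for Ctsc, 0.59 for Hexa, 0.48 for Laptm5, 0.38 for Manba, 0.38 for Gusb and 0.33 for Ctsa.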

How the results depend on the processing

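Over the alternatives that kept all libraries' comparisons but changed 1 setting or left out a doubted pair, 917 of 952 values of called members kept their call, 35 lost it and 0 turned direction; over single left-out libraries 1938 of 2112 kept it, 174 lost it and 0 turned. With DESeq2, 6 members were higher in LSK CreER knockouts and 1 member's progenitor effect was lower in Mx1Cre than in CreER. Without LSK CreER knockouts 2 and 3, 0 members were higher in LSK CreER knockouts, 1 had a lower LSK effect in Mx1Cre and 1 a higher effect in LSK than in progenitors. With a length trend removed, 2 members were lower in LSK Mx1Cre knockouts, and 2 were higher in LSK than in progenitor controls. The replicate number as a replicate block left 1 member with a lower LSK effect in Mx1Cre (Ctsh, adjusted p = 0.0727, was lost), and 2 where only Mx1Cre libraries were blocked (Ctsh, adjusted p = 0.0483). The mouse as a replicate block gave 2 members higher in LSK than in progenitor controls, with or without the pair, and the blocks moved no other count of members by over 1.5 times. Left-out single libraries gave these ranges of counts: LSK knockouts, 11 to 14 higher and 2 to 3 lower; LSK CreER, 1 to 6 higher and 0 lower; LSK Mx1Cre, 3 to 9 higher and 1 to 5 lower; difference of LSK effects between Cre lines, 0 higher and 1 to 4 lower; LSK controls, 15 to 19 higher and 0 lower. For progenitors they were 0 higher and 7 to 9 lower for knockouts, 0 for CreER, 0 higher and 5 to 8 lower for Mx1Cre, 0 for the difference of effects, and 20 to 24 higher and 0 lower for controls. Between populations they were 1 to 2 higher and 10 to 17 lower for controls, and 4 to 13 higher and 0 lower for the knockout effect. The causes were not tested. Depth and the group size of 4 limit small changes: on simulated data for progenitor knockouts 47% of genes changed 1.5-fold were recovered.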
